A study of Homo sapiens with 12 samples.

Results

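The replication-dependent histone genes described here are the rows of the count table whose names follow the H1-1 to H1-6, H2AC, H2BC, H3C or H4C pattern, with pseudogenes left out and a mean of at least 10 counts over the 12 libraries. Of 66 matching names among 59653 rows, 33 met the count minimum: 2 of H1, 5 of H2A, 12 of H2B, 5 of H3 and 9 of H4. The member nearest the minimum was H4C4, with a mean of 12 counts, and the names just under it were H2AC20 and H2BC17, with 9.8 counts each. The libraries are RNA-seq of human cells labelled as neurons, made from induced pluripotent stem cells of IMR-90, a fibroblast line, so all 12 share 1 genetic background. In 6 libraries (siNC) the cells had received a negative control siRNA, and in the other 6 (siZCC) an siRNA against ZCCHC17, a zinc knuckle RNA-binding protein. Sample titles include the abbreviation NPC, which the labels do not spell out, while the cell type label is neuron. The labels do not say whether the 6 libraries of a group came from separate cultures, so p-values measure the spread between these libraries, which may be technical.

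Replication-dependent histone genes encode the core histones H2A, H2B, H3 and H4 and the linker histone H1, and lie in clusters of many near-identical copies. They are transcribed mainly in S phase, when new DNA is packed into nucleosomes. Their mRNAs end in a conserved stem-loop in place of a poly(A) tail: the stem-loop is bound by SLBP, and cleavage just after it is directed by the U7 small nuclear RNA. In cells that have left the cell cycle, several of these genes also give transcripts that run past the stem-loop and are polyadenylated further downstream.

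A match to the stem-loop consensus was found in the GENCODE v29 (GRCh38) transcripts of 23 of the 33 genes. A gene without a match may still have the stem-loop, since some v29 models are short, such as 312 bases for H4C4 and 381 bases for H2BC12. The 16-base core was the same in 11 genes, among them H2BC21, H2AC6, H2BC8 and H3C10. H2BC4, H2BC5, H2BC7 and H3C8 shared another core, and the H4 genes with a match had 2 cores of their own, held by 3 genes each. The stem-loops of the 8 genes that passed the test between siZCC and siNC are printed from the transcript strand, in DNA letters, with the arms of the stem in capitals, to show how alike these sites are in genes that fell and in the gene that rose.
H3C6: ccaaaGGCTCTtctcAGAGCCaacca
H3C8: aaaaaGGCTCTtttaAGAGCCgccta
H3C10: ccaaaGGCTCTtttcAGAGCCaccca
H2AC11: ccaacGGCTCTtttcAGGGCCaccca
H2BC8: tcaaaGGCTCTtttcAGAGCCactca
H2BC4: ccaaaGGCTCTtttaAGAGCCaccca
H4C8: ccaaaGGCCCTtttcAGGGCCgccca
H2BC5: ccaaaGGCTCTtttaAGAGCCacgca
The first 7 are from the genes that fell and the last is from H2BC5, the gene that rose. H2BC5 has the same core as H3C8 and H2BC4, so genes that moved in opposite directions shared it.

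The 33 genes lie in 3 stretches of the genome (RefSeq, GRCh38.p14). The first is chr1:149782689-149886682, with 5 members, of which 0 passed the test (0 also at an unadjusted p under 0.05 in edgeR). On chromosome 6, 16 members lie at chr6:26055740-26285534, of which 5 fell and 1 rose, and 12 lie at chr6:27132316-27890826, of which 2 fell. Of all genes tested by edgeR, 22.2% passed and 34.4% had an unadjusted p under 0.05. Whether the stretches differ from each other was not tested. The median log2 fold changes of the 3 stretches were -0.17, -0.20 and -0.15. The counts were made per gene over the submitters' annotation, whose release and gene lengths are not given in the sources used here, so levels are compared between libraries and not between genes.

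Libraries held 90755953 to 120023356 counts in siNC and 76115083 to 105389055 in siZCC, of which the 33 genes took 0.0119% to 0.0129% and 0.0115% to 0.0126%. ZCCHC17 fell from 56.9 ± 2.49 to 9.99 ± 0.507 CPM (counts-per-million, scaled by TMM; mean ± SD, n = 6), a log2 fold change of -2.51 (SE 0.0402, adjusted p 3.52e-17 in edgeR's quasi-likelihood test), and it was lower in every siZCC library. Within both groups 3 libraries stood apart by IL1B, an inflammatory cytokine gene, with 5.23 to 13.0 CPM against 0.0358 to 0.0999 CPM in siNC and 5.30 to 15.96 CPM against 0.0223 to 0.0760 CPM in siZCC. Of 14 neuron markers 6 fell and 1 rose, with a summed level of 3935 to 4401 CPM in siNC and 3569 to 4055 CPM in siZCC. Summed progenitor markers stood at 5675 to 6060 and 5733 to 6262 CPM (3 of 8 rose, 1 fell), astrocyte markers at 1829 to 2063 and 1893 to 2240 CPM (3 of 8 rose, 1 fell; mean log2 CPM 6.35 to 6.45 and 6.54 to 6.70, without overlap) and mesenchymal markers at 473 to 815 and 358 to 563 CPM (1 of 8 rose, 4 fell). Of 8 microglia markers, PTPRC, AIF1, CX3CR1, P2RY12, TREM2 and ITGAM were under 1 CPM in every library, so only CSF1R and CD74 reached 1 CPM. The sum of the 8 was 9.62 to 16.9 CPM in siNC and 4.59 to 8.09 CPM in siZCC, without overlap. Mean log2 CPM of the 4 tested markers did overlap, at -0.298 to 0.514 in siNC and -0.625 to 0.131 in siZCC, and 1 of the 4 fell. The part of these differences in the histone values was not tested. Of all genes tested by edgeR, 10.8% fell and 11.4% rose.

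With ZCCHC17 reduced, 7 of the 33 histone genes fell and 1 rose, while 25 did not pass the test (edgeR's quasi-likelihood test, Benjamini-Hochberg adjusted p under 0.05 over 24671 genes). The genes that fell were H3C6, H3C8 and H3C10 of H3, H2AC11 of H2A, H2BC4 and H2BC8 of H2B and H4C8 of H4, and the gene that rose was H2BC5 of H2B. The same test called 22.2% of all genes tested, 10.8% lower and 11.4% higher, beside 24.2% of the histone genes, 21.2% lower and 3.03% higher. The share of histone genes called was therefore near that of all genes, and most of those called were lower. The median log2 fold change was -0.17 over the histone genes and -0.0016 over all genes, and 26 of the 33 were below 0. The median was -0.08 over the 21 histone genes with a mean of at least 50 counts (15 below 0) and -0.22 over the 12 with fewer (11 below 0). All 33 passed the filter on low counts. In bulk RNA, fewer cells of a type and less RNA per cell cannot be told apart.

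The groups did not overlap for H2BC8 (lower) and H2BC5 (higher) alone, beside 4.5% of all genes that were lower without overlap and 5.25% that were higher. In 11 of the 33 genes (33.3%), and in 17.6% of all genes tested, all 6 siZCC libraries were below the siNC median. Of the 33 genes, 12 had a mean under 50 counts, of which 1 was called, against 7 of the 21 with more. The count of 8 called genes fell to 5 without siNC replicate 6, siZCC replicate 1 or siZCC replicate 2. In the 6 libraries with high IL1B taken alone, with 3 in each group, edgeR called 1 histone gene (H3C8) and 8.2% of all genes, and 8 of 33 histone genes (24.2%) had an unadjusted p under 0.05, beside 24.8% of all genes. In the 6 with low IL1B it called 0 histone genes and 6.45% of all genes, with 7 of 33 histone genes (21.2%) at an unadjusted p under 0.05, beside 22.9% of all genes. All 8 called genes had the same sign in both sets of libraries. They were called from these same 12 libraries, so a shared sign was likely in advance and is no separate test.

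**Figure D1:**
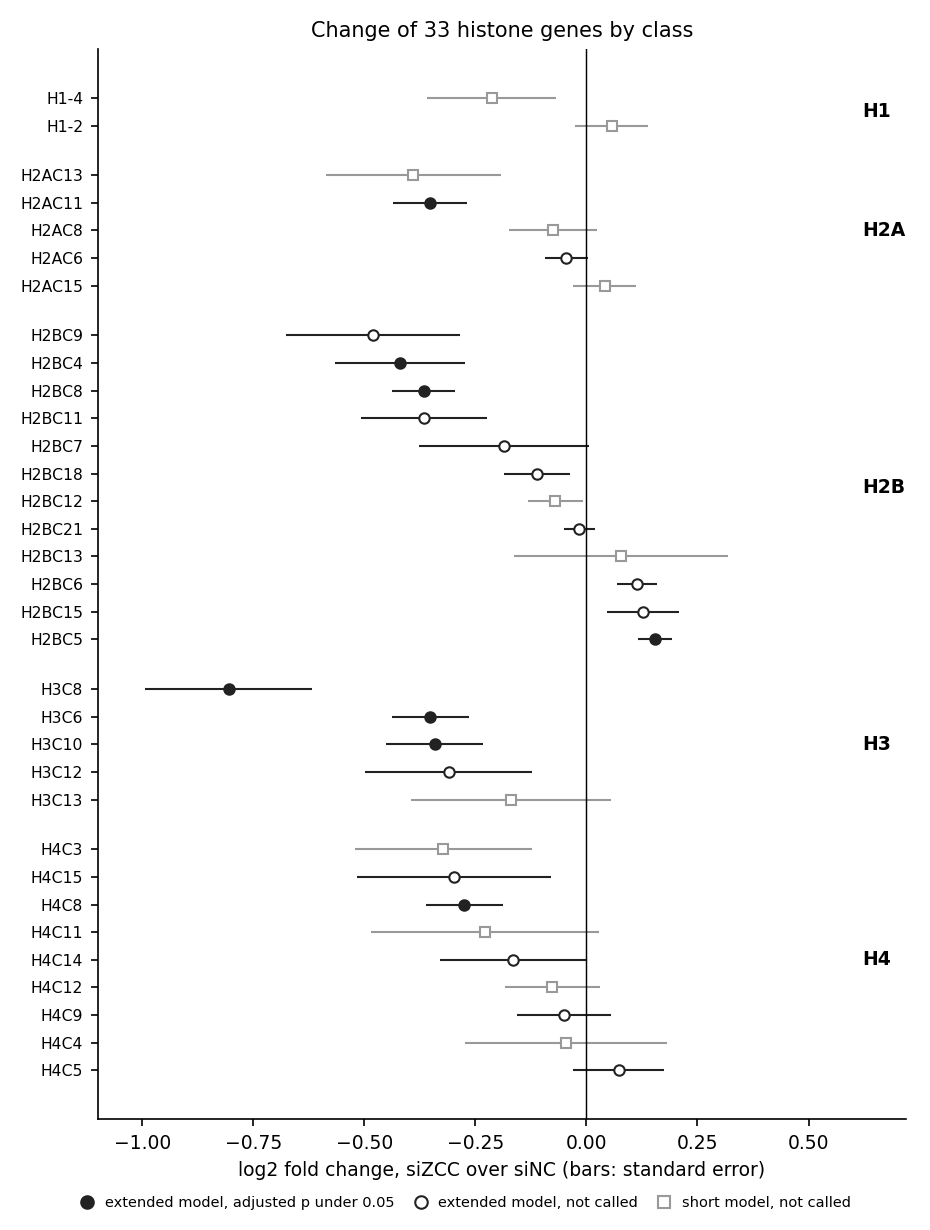
Log2 fold change of each of the 33 histone genes in siZCC against siNC, by class, with its standard error (bars). Called genes have filled symbols. Dark circles are genes with a v29 transcript that is spliced or runs at least 200 bases past the stem-loop, and grey squares are the others. The 5 H3 genes all lie below 0, H3C8 lies farthest left at -0.81, and H2BC5 is the called gene to the right of 0.

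Among the 5 genes for H3, the core histone whose tail carries many of the best known chromatin marks, 3 fell and 2 did not pass the test, and all 5 fold changes were below 0 (median -0.34). H3C6 (chr6:26224178-26227473, plus strand) held 72.1% of the H3 counts. Its level was 5.07 to 7.17 CPM in siNC (median 6.72) and 4.60 to 5.46 CPM in siZCC (median 4.92). The siNC libraries split, with replicates 2 and 5 at 5.37 and 5.07 CPM inside the siZCC range and the other 4 above it. The same replicates were the 2 lowest controls for H2BC8, H2BC4 and H4C8, but not for H3C8, H3C10, H2AC11 or H2BC5. Among controls they had the highest mean log2 CPM of neuron markers (7.10 and 7.09) and the lowest of mesenchymal markers (4.30 in both). These links were not tested, and no fit left out both libraries. The means of H3C6 were 6.35 ± 0.919 and 4.97 ± 0.355 CPM (SD, n = 6), a log2 fold change of -0.35 (SE 0.0869, edgeR adjusted p 0.0079). H3C6 fell by 0.39 on the log2 scale among libraries with high IL1B and by 0.31 among those with low IL1B, neither passing the test alone.

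H3C8 (chr6:26270918-26271413, minus strand) had the largest fold change among the called histone genes and the fewest counts, 16 to 35 in siNC libraries and 9 to 18 in siZCC libraries. Its level was 0.175 to 0.304 CPM in siNC (median 0.282) and 0.118 to 0.191 CPM in siZCC (median 0.157). A single siNC library, replicate 4, lay inside the siZCC range. The log2 fold change was -0.81 (SE 0.188, edgeR adjusted p 0.00538), being -1.11 among libraries with high IL1B and -0.53 among those with low IL1B. The difference between these was not tested.

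H3C10 (chr6:27810051-27810536, plus strand) ranged from 1.06 to 1.65 CPM in siNC (median 1.39) and from 0.960 to 1.25 CPM in siZCC (median 1.101). The groups overlapped through siNC replicate 2, the lowest control. Its log2 fold change was -0.34 (SE 0.109, edgeR adjusted p 0.0324), and the call was lost when any of 7 libraries was left out, with edgeR adjusted p-values of up to 0.0816: replicates 1, 4 and 6 of siNC and 1, 2, 3 and 5 of siZCC. H3C12 and H3C13, with 27 to 82 and 12 to 38 counts a library, had log2 fold changes of -0.31 (SE 0.189) and -0.17 (SE 0.225).

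H2A and H2B form the dimer that joins the nucleosome last. Of 5 H2A genes 1 fell, and the median log2 fold change was -0.08. H2AC11 (chr6:27133043-27133535, plus strand) had 2.62 to 3.12 CPM in siNC (median 2.88) and 1.80 to 2.63 CPM in siZCC (median 2.31). Only the highest siZCC library, replicate 5, reached the lowest siNC library, replicate 2. The means were 2.89 ± 0.201 and 2.27 ± 0.272 CPM (SD, n = 6), with a log2 fold change of -0.35 (SE 0.0828, edgeR adjusted p 0.00564).

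H2AC6, which held 70.4% of the H2A counts, stood at 14.8 to 17.9 CPM in siNC (median 16.4) and 15.1 to 17.1 CPM in siZCC (median 15.8). Its log2 fold change was -0.05 (SE 0.0493), and the siZCC range lay inside the siNC range. H2AC15 had 2.82 ± 0.269 and 2.91 ± 0.139 CPM (SD, n = 6), with a log2 fold change of 0.04 (SE 0.0714). Its gene lies inside the span of H2BC15 on the other strand, and the strand setting of the counting is not given, so reads of the pair may be mixed. H2AC8 and H2AC13 had log2 fold changes of -0.08 (SE 0.0989) and -0.39 (SE 0.197), the latter from 17 to 58 counts a library.

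Of 12 H2B genes 2 fell and 1 rose, with a median log2 fold change of -0.09. H2BC8 (chr6:26216200-26216688, minus strand) was at 2.47 to 3.12 CPM in siNC (median 2.86) and 2.08 to 2.29 CPM in siZCC (median 2.16). Every siZCC library was below every siNC library. The means were 2.80 ± 0.250 and 2.171 ± 0.0846 CPM (SD, n = 6), a log2 fold change of -0.37 (SE 0.0710, edgeR adjusted p 0.00145), and the value was -0.36 and -0.38 among the libraries with high and low IL1B.

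H2BC5 (chr6:26158121-26171349, plus strand) went the other way. It stood at 13.5 to 14.9 CPM in siNC (median 14.4) and 15.03 to 16.7 CPM in siZCC (median 15.9), with every siZCC library above every siNC library. Its rise was small, from 14.3 ± 0.529 to 15.9 ± 0.634 CPM (SD, n = 6), a log2 fold change of 0.15 (SE 0.0384, edgeR adjusted p 0.00816). H2BC5 is one of the genes known to give a spliced, polyadenylated transcript, and its v29 gene overlaps a gene on each strand. The strand setting of the counting is not given, so reads of these genes may be mixed.

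H2BC4 (chr6:26113170-26123926, minus strand) had 0.585 to 0.937 CPM in siNC (median 0.669) and 0.425 to 0.716 CPM in siZCC (median 0.509). The groups overlapped, and siZCC replicate 5, at 0.716 CPM, was above most siNC libraries. Its log2 fold change of -0.42 (SE 0.147) was barely past the threshold, at an edgeR adjusted p of 0.0491. The call was lost with no filter on low counts (adjusted p 0.0747), with limma voom (0.0541), with a replicate block (0.0681), with the IL1B side as a block (0.0526) and when any of 9 of the 12 libraries was left out (0.126 at most).

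The other 9 H2B genes did not pass the test. H2BC21, with 39.3% of the H2B counts, had 29.4 to 31.4 CPM in siNC (median 30.5) and 28.4 to 32.3 CPM in siZCC (median 30.0), a log2 fold change of -0.02 (SE 0.0349). H2BC6 had 12.7 to 14.9 CPM in siNC (median 13.4) and 13.7 to 15.4 CPM in siZCC (median 14.5), with no siZCC library below the siNC median. Its log2 fold change was 0.11 (SE 0.0444, edgeR adjusted p 0.0750). The v29 gene of H2BC6 overlaps AL353759.1 on the other strand, as that of H2BC5 does, so its reads may be mixed too. H2BC12 had a log2 fold change of -0.07 (SE 0.0622), H2BC18 one of -0.11 (SE 0.0741) and H2BC15 one of 0.13 (SE 0.0810). H2BC11, H2BC9 and H2BC7 were at -0.37, -0.48 and -0.19 on the log2 scale, with all 6 siZCC libraries below the siNC median in each of the 3 genes. Their edgeR adjusted p-values were 0.0743, 0.0889 and 0.536. H2BC13, with 6 to 23 counts a library, was at 0.08 (SE 0.240). The rows of H2BC20P and H2BC19P, named as pseudogenes and so not members, held more counts than most H2B genes (means of 2572 and 1752 counts) and both fell, by 0.13 and 0.20 on the log2 scale (edgeR adjusted p 0.0119 and 0.00169).

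**Figure D2:**
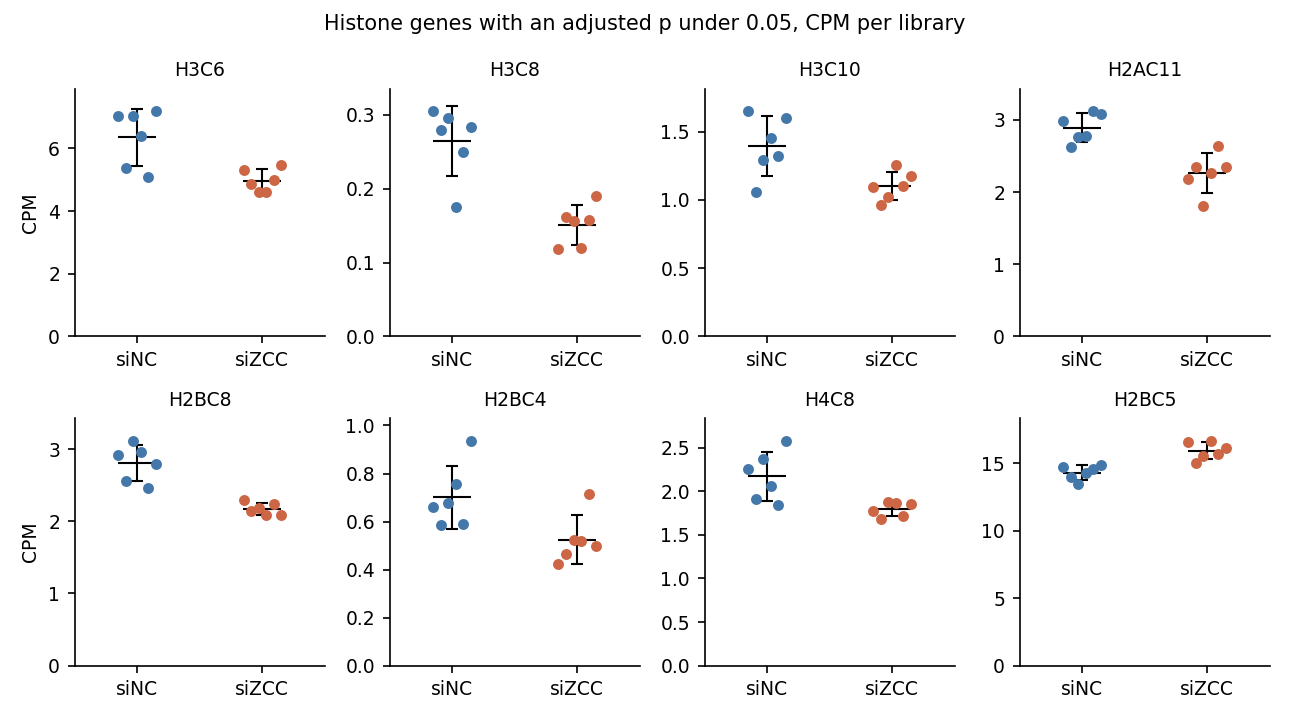
Level in CPM of the 8 called histone genes in each of the 12 libraries, with the group mean and SD, siNC beside siZCC. H2BC8 and H2BC5 are the genes whose groups do not overlap, and the H3C6 panel shows siNC replicates 2 and 5 at the height of the siZCC libraries.

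Many H2A and H2B genes sit head to head and share the stretch between their start sites. There are 5 such pairs among the 33 genes. The stretches of H2BC11/H2AC11, H2BC8/H2AC8 and H2BC4/H2AC6 are printed because these 3 pairs hold a called gene on 1 side: H2AC11, H2BC8 and H2BC4 fell, and their partners did not pass the test. They are RefSeq sequence on the plus strand of GRCh38.p14, at chr6:27132796-27133042, chr6:26216689-26216920 and chr6:26123927-26124171, and capitals mark the CCAAT box (CCAAT), the TATA box (TATAAA) and the octamer (ATTTGCAT) on either strand. Matches can overlap, as 2 TATA boxes on opposite strands do in the first stretch.
H2BC11/H2AC11: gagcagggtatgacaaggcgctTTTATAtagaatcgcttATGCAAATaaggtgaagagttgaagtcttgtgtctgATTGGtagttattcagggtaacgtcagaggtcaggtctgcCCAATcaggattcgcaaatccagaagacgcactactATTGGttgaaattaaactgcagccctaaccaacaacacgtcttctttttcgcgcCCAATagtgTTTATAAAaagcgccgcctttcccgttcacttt
H2BC8/H2AC8: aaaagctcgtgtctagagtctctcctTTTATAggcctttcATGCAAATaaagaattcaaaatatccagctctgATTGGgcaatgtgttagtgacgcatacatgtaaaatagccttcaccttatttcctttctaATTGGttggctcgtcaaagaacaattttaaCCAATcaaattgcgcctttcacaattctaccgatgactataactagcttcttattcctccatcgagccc
H2BC4/H2AC6: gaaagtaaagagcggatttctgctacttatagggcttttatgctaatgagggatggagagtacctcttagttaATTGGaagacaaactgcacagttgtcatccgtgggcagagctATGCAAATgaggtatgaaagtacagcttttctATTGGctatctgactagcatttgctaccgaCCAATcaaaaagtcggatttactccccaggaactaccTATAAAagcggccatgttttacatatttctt
The first stretch holds 4 CCAAT boxes, 3 TATA boxes and 1 octamer, and each of the other two holds 3, 1 and 1.

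The genes of a pair were read against each other within each library. The log2 ratio of H2BC11 to H2AC11 was -1.74 ± 0.303 in siNC and -1.74 ± 0.336 in siZCC (SD, n = 6 a group; exact two-sided permutation p 0.996). For H2BC8 over H2AC8 it was 1.58 ± 0.134 and 1.29 ± 0.170, a difference of -0.29 (exact two-sided permutation p 0.0152, n = 6 a group). H2BC4 over H2AC6 differed by -0.36 (exact permutation p 0.0303), H2BC13 over H2AC13 by 0.53 (exact permutation p 0.0584) and H2BC15 over H2AC15 by 0.08 (exact permutation p 0.429). Adjusted over the 5 pairs by Benjamini-Hochberg, the smallest of these exact permutation p-values was 0.0758, so none passed 0.05. The pairs were chosen for this comparison after the single genes had been seen.

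Among 31 members found in the RefSeq promoter table (250 bases before to 50 after the start), CCAAT was in 77.4% against 35.7% of 27305 promoters, TATAAA in 61.3% against 11.95%, and ATTTGCAT in 38.7% against 1.80%. The classes differed in these letters. All 12 H2B, 5 H2A, 4 H3 and 2 H1 promoters held CCAAT, but 1 of 8 H4 promoters did. The octamer, the binding sequence of OCT1, was in 9 of 12 H2B and 3 of 5 H2A promoters and in 0 of the other 14. Paired H2A and H2B genes have 193 to 247 bases between their start sites, so their promoter windows overlap. The 1 octamer in each of the 3 stretches printed above was counted for both genes of its pair. The shares of members therefore count some sites more than once. The table held no entry for H4C3 and H3C12.

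Of 9 genes for H4, which pairs with H3 at the centre of the nucleosome, 1 fell, and 8 of the 9 fold changes were below 0 (median -0.17). H4C8 (chr6:26285126-26285534, minus strand), with 32.9% of the H4 counts, had 1.84 to 2.58 CPM in siNC (median 2.16) and 1.68 to 1.87 CPM in siZCC (median 1.81). The groups met at siNC replicate 5, the lowest control. Its means were 2.168 ± 0.285 and 1.79 ± 0.0835 CPM (SD, n = 6), a log2 fold change of -0.28 (SE 0.0870, edgeR adjusted p 0.0306). The call was lost when any of 6 libraries was left out, with edgeR adjusted p-values of up to 0.0812: replicates 1, 3 and 6 of siNC and 1, 2 and 5 of siZCC.

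The H4 genes next in counts did not pass the test, H4C9 at a log2 fold change of -0.05 (SE 0.106) and H4C5 at 0.07 (SE 0.103). H4C9 had 1.28 ± 0.133 and 1.24 ± 0.177 CPM and H4C5 1.01 ± 0.0755 and 1.06 ± 0.154 CPM (SD, n = 6). The span of H4C9 lies in that of H2BC12 on the other strand. The remaining 6, H4C3, H4C4, H4C11, H4C12, H4C14 and H4C15, lay between -0.32 and -0.05 on the log2 scale. H4C14 and H4C15 are near-identical copies, so their separate values are uncertain.

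Neither gene for the linker histone H1 passed edgeR's test, and neither had an unadjusted p under 0.05. H1-2, with 94.0% of the H1 counts, had 6.73 to 8.63 CPM in siNC (median 7.61) and 6.48 to 9.30 CPM in siZCC (median 7.86), and its log2 fold change was 0.06 (SE 0.0820). The siZCC libraries spread on both sides of the siNC range. H1-4 had 0.522 ± 0.0868 and 0.453 ± 0.0766 CPM (SD, n = 6) and a log2 fold change of -0.21 (SE 0.145).

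Summed over the members of a class, H3 went from 8.82 ± 1.15 to 6.90 ± 0.368 CPM (SD, n = 6 in siNC and in siZCC), a ratio of 0.782. The H3 sum was 7.25 to 9.83 CPM in siNC and 6.49 to 7.36 CPM in siZCC. The groups overlapped through siNC replicate 5, at 7.25 CPM, with replicate 2 next at 7.52 CPM and the other 4 siNC libraries from 9.06 CPM up. H4 summed to 6.36 ± 0.303 and 5.79 ± 0.397 CPM, a log2 ratio of -0.13, and H2A to 23.4 ± 1.17 and 22.2 ± 0.804 CPM, a log2 ratio of -0.07. H2B, with 63.0% of all histone counts, summed to 76.7 ± 0.822 and 77.6 ± 3.03 CPM (log2 ratio 0.02), and H1 to 8.16 ± 0.653 and 8.40 ± 1.12 CPM (0.04). The H2B sum leaves out the pseudogene rows H2BC20P and H2BC19P. Their mean levels fell from 26.6 to 24.2 CPM and from 18.5 to 16.1 CPM. All 33 genes together gave 123 ± 3.70 and 121 ± 4.86 CPM. The groups overlapped in all 5 classes, and the sum of all 33 was carried by few genes, since the 6 with the most counts held 74.6% of it. No test was made on these sums.

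**Figure D3:**
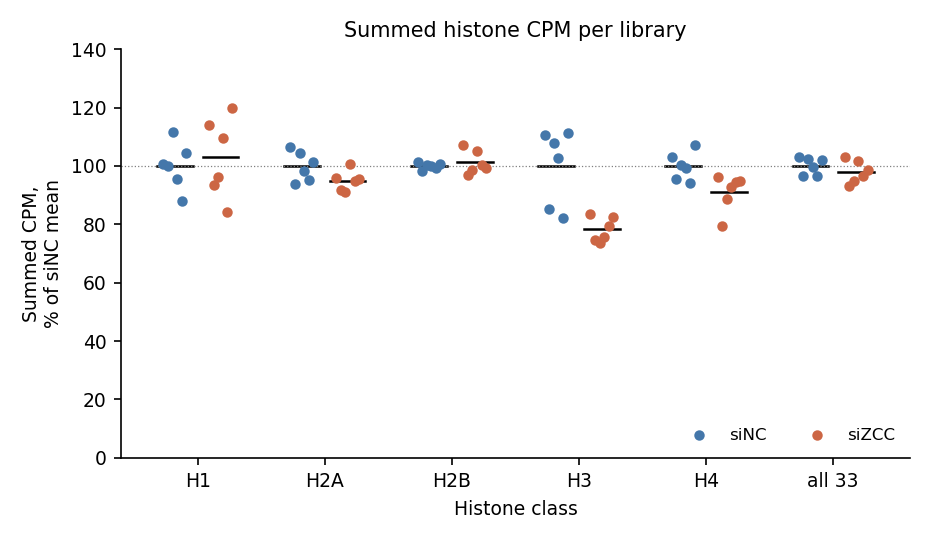
Summed CPM of each histone class in each library, as a percentage of the siNC mean of that class, with group means as lines. H3 in siZCC lies lowest, at a mean ratio of 0.782 to siNC, and the siNC libraries of H3 fall into 4 high and 2 low ones.

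The labels do not say whether poly(A) RNA was selected. The short non-polyadenylated RNAs RPPH1, RN7SK, RN7SL2, RNU7-1 and SCARNA2 were listed at 0 in every library, while RMRP averaged 0.756 and 0.705 CPM and RN7SL1 52.0 and 60.1 CPM in siNC and siZCC. Of 6 histone genes reported to give polyadenylated transcripts (H1-2, H2AC6, H2BC4, H2BC5, H2BC12 and H2BC21), 1 rose and 1 fell, and the median log2 fold change was -0.03. These 6 held 63.7% of the histone counts. Of the other 27 genes 6 fell and 0 rose, with a median of -0.21. The shares called were 33.3% of the 6 and 22.2% of the 27, beside 22.2% of all genes tested. All 12 histone genes with a mean under 50 counts, whose median was -0.22, were among the 27. The part of abundance in this split was not tested. The sum of the 27 was 45.8 ± 2.13 in siNC and 42.7 ± 1.23 CPM in siZCC, and that of the 6 was 77.7 ± 1.84 and 78.2 ± 3.68 CPM (SD, n = 6).

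A similar split was made from the gene models. In 21 genes a v29 transcript is spliced or runs at least 200 bases past the stem-loop, as in H3C6 (1862 bases), H4C8 (1655 bases), H2AC11 (1761 bases) and H2BC21 (1729 bases). All 8 called genes were among these 21, and 0 of the 12 with short models was called by edgeR (0 also at an unadjusted p under 0.05). That was 38.1% of the 21 and 0% of the 12. Of all genes tested, 22.2% were called and 34.4% had an unadjusted p under 0.05. The median log2 fold changes were -0.28 over the 21 genes and -0.08 over the 12. The short models had fewer counts, with a median mean count of 44.2 against 127, and a median SE of 0.171 against 0.103. Among genes with at least 100 counts on average, 5 of 13 with long models fell and 1 rose, while 0 of 3 with short models was called, and the medians of these genes were -0.05 and 0.04. Whether the difference between the sets exceeds the spread between genes was not tested. A gene without a stem-loop match could join the 21 only through a spliced transcript, so a short model may be an incomplete one. H1-2 and H2BC12, both reported to be polyadenylated, count as short, with v29 models of 642 and 381 bases and no match. How far the split follows the completeness of the v29 models was not tested.

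The genes that act with histone supply were read from the same fit. Of 24 genes for the processing of histone pre-mRNA, 3 rose and 4 fell, and the median log2 fold change was -0.02. The share called, 29.2%, stood beside 22.2% of all genes tested. SLBP, which binds the stem-loop, had 41.0 ± 1.96 and 40.2 ± 1.62 CPM (log2 fold change -0.03, SE 0.0362), and NPAT, the activator of histone transcription, 26.3 ± 2.56 and 27.1 ± 0.916 CPM (0.04, SE 0.0528). ERI1, the exonuclease that trims the stem-loop end, was at -0.09 (SE 0.0356, edgeR adjusted p 0.0767). LSM10, a protein of the U7 particle, rose by 0.16 (SE 0.0437), MIF4GD, a partner of SLBP in translation, by 0.12 (SE 0.0369) and SYMPK, the scaffold of the cleavage complex, by 0.09 (SE 0.0284). The SYMPK call was lost with a replicate block (edgeR adjusted p 0.0608), with upper quartile scaling (0.0534), with no filter on low counts (0.0860) and without any of 7 of the 12 libraries, and that of MIF4GD with no filter (0.0520) and without any of 3 libraries. SNRPD3, a ring protein of the U7 and spliceosomal particles, fell by 0.15 (SE 0.0300), SRRT, a partner of the cap-binding complex, by 0.17 (SE 0.0394), NCBP1, the larger cap-binding subunit, by 0.11 (SE 0.0338; call lost without any of 7 libraries), and LSM1, of the decay machinery, by 0.12 (SE 0.0397). The count of 7 called genes was 3 without siNC replicate 6 and 4 without siNC replicate 1, siZCC replicate 1 or siZCC replicate 3.

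Of 12 genes listed as replication-independent histones, 3 fell and 0 rose (median log2 fold change -0.06). The share called was 25%, beside 22.2% of all genes tested. CENPA, the H3 variant of centromeres, went from 7.94 ± 0.428 to 5.05 ± 0.467 CPM (SD, n = 6), a log2 fold change of -0.66 (SE 0.0631, edgeR adjusted p 3.07e-06) with no overlap. MACROH2A2 fell by 0.14 (SE 0.0350) and H2AZ1 by 0.09 (SE 0.0313), the latter at an edgeR adjusted p of 0.0484 that a replicate block raised to 0.109. The H2AZ1 call was also lost with no filter on low counts (edgeR adjusted p 0.0651) and without any of 9 libraries. H3-3A and H3-3B, the genes for H3.3, the H3 form laid down outside replication, were at -0.03 (SE 0.0282) and -0.01 (SE 0.0259).

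Of 19 histone chaperones 6 fell and 1 rose, with a median of -0.05. This was 36.8% called, beside 22.2% of all genes tested. HJURP, the chaperone of CENPA, fell by 0.33 (SE 0.0384, edgeR adjusted p 1.62e-05), NASP, which keeps the pool of free H3 and H4, by 0.19 (SE 0.0254, adjusted p 7.79e-05) and HAT1, which acetylates new H4, by 0.10 (SE 0.0268, adjusted p 0.0141). TONSL, a reader of new H4 at replication forks, rose by 0.16 (SE 0.0377, edgeR adjusted p 0.00611).

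Of 38 genes of S phase 11 fell and 0 rose, and the median log2 fold change was -0.08. Those called lower were 28.9% of the list, beside 10.8% of all genes tested. CLSPN, a checkpoint adaptor at replication forks, fell by 0.25 (SE 0.0380) and FEN1, the flap endonuclease, by 0.24 (SE 0.0375), both without overlap of the groups, and the count of 11 was 6 without siZCC replicate 4. Of 25 genes of G2 and M phase 24 fell (96%), 23 of them without overlap, and the median was -0.48. Of all genes tested, 4.5% were lower without overlap. CCNB1, the mitotic cyclin, went from 50.2 ± 2.04 to 33.01 ± 2.14 CPM (SD, n = 6), and AURKA, a spindle kinase, and BIRC5, a chromosomal passenger protein, fell by 0.67 (SE 0.0497) and 0.51 (SE 0.0376). The gene not called, NUSAP1, had 0.825 ± 0.0542 and 0.896 ± 0.109 CPM. Mean log2 CPM of the S phase list was 4.84 ± 0.0522 in siNC and 4.75 ± 0.0635 in siZCC, and of the G2 and M phase list 4.96 ± 0.0336 and 4.51 ± 0.0771 (SD, n = 6). The part of these cell cycle differences in the histone values was not tested.

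**Figure D4:**
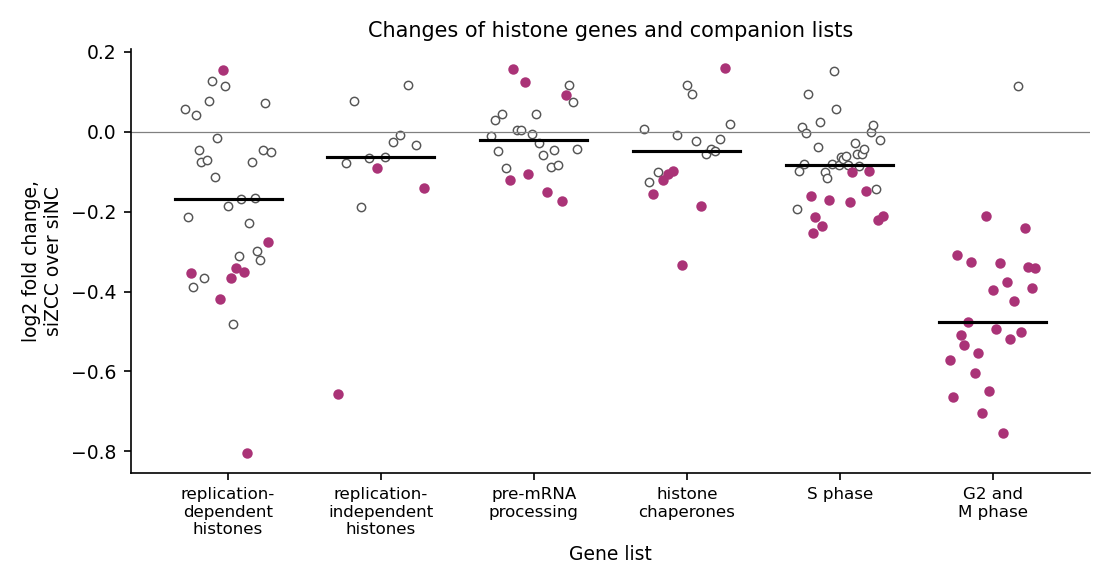
Log2 fold change of each gene in siZCC against siNC for the 33 histone genes and the 5 companion lists, with called genes marked by colour and the median of each list as a line. The medians are -0.17 for the histone genes, -0.08 for S phase and -0.48 for G2 and M phase, where 24 of 25 genes fell.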

How the data were processed

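The authors deposited 1 table of raw counts, with gene symbols as rows and the 12 libraries as columns. Libraries were NEBNext Ultra II Directional, from total RNA of a Qiazol lysate, per the labels' protocols. The submitters' processing notes name bcl2fastq 2.17, STAR 2.7.6a, featureCounts 2.0.1 and GRCh38, and the annotation release, strand setting and treatment of reads with several matches are not given in the sources used here. Such choices decide how reads of near-identical histone copies and of overlapping genes on opposite strands are split.

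Groups come from the sample titles. The deposited counts were fitted with edgeR 4.0.16 (R 4.3.3): filterByExpr with defaults (24671 genes kept), TMM scaling, glmQLFit and glmQLFTest over all 12 libraries with no covariate, and Benjamini-Hochberg adjustment over those genes, a gene being called at an adjusted p under 0.05. The biological coefficient of variation was 6.55%. Each SE is the absolute log2 fold change over the root of the F statistic. CPM are TMM-scaled, and class sums add the CPM of members. Permutation tests were exact over 924 assignments, two-sided, with 0.00216 as the smallest p they allow. The scripts were tested on simulated data. Alternatives used limma 3.58.1 and DESeq2 1.42.0.

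Positions and promoters are from RefSeq tables of GRCh38.p14, in which all 33 members were found, and transcript models are from GENCODE v29. The model split asks for a spliced transcript or 200 bases after the stem-loop. The members, gene lists and tests were chosen with earlier results of these data known. Named in each class were the 3 members with the highest mean CPM, the 2 smallest adjusted p-values under 0.05 in each direction and the genes reported to be polyadenylated, and in each list the 3 smallest in each direction, with SLBP, NPAT, ERI1 and ZCCHC17; a gene so chosen is not reported. Other members, H3-3A, H3-3B, LSM1, NUSAP1 and the pseudogene rows were added after their values were seen.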

Additional observations from a re-analysis of the deposited data

Results flagged for a closer look

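In 7 of 104 groups of 6 libraries examined, 1 library lay far from the other 5, by Dixon's ratio of the gap to the nearest library over the group's range. Chance flags about 1 in 20 groups, or 5.2 here. H2BC4 in siZCC replicate 5 was at 0.716 CPM beside 0.425 to 0.523 CPM in the others, and without that library its log2 fold change was -0.52. H2BC12 in siNC replicate 5 was at 7.03 CPM beside 8.08 to 8.65 CPM. The same siZCC replicate 5 was highest for HJURP (18.9 CPM beside 15.99 to 17.1), NASP (192 CPM beside 180 to 183) and BIRC5 (29.7 CPM beside 25.4 to 26.9), and without it these 3 genes fell by 0.36, 0.20 and 0.54 on the log2 scale. SYMPK in siZCC replicate 2 was at 152 CPM beside 160.5 to 164 CPM. The mean log2 CPM of the replication-independent histones was 6.02 in siNC replicate 6 and 6.07 to 6.09 in the other siNC libraries.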

How the results depend on the processing

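Over 8 alternatives with all libraries (scaling, filter, test, block), 7 to 8 histone genes were called. H2BC5, H3C6, H2AC11 and H2BC8 kept their call in all 8 and in all 12 fits that leave out 1 library, and H3C8 in 7 of 7 that tested it and in all 12. H4C8 and H3C10 kept theirs in 8 of 8, but in 6 and 5 of the 12. Leaving out 1 library gave 5 to 9 histone genes called, 4 to 8 lower and 1 to 2 higher, 3 to 8 processing genes and 6 to 15 S phase genes, and H4C9 was -0.0860 to 0.0254. Same-numbered libraries did not deviate together (correlations -0.077 to 0.018, with 0 of 6 closest to its own number), so the numbers are not taken as pairs, and with a replicate block 7 histone genes were called, 6 lower and 1 higher.

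Taken alone, and so with fewer samples, the 6 high-IL1B libraries had 1 histone gene called (1 lower, 0 higher), 1 replication-independent histone, 1 processing gene, 3 chaperones and 3 S phase genes, and a log2 ratio of 0.0623 for the H2B sum. There the log2 fold changes of H1-2, H2AC6, H2AC15, H2BC21 and H4C9, none called with all libraries, changed sign, to -0.0183, 0.0060, -0.0460, 0.0429 and 0.128. The 6 with low IL1B gave 0 histone genes (0 lower, 0 higher), 1 processing gene, 3 chaperones and 7 S phase genes, an H2B log2 ratio of -0.0288, and H4C5 at -0.0878. The cause of these reversals was not tested. The split of class sums by IL1B was chosen after seeing the data.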
